A study of Homo sapiens with 8 samples.

Results

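The genes described are 10 factors of histone H3 lysine 9 (H3K9) methylation and of the HUSH complex: SETDB1, TRIM28, MPHOSPH8, TASOR, PPHLN1, EHMT1, EHMT2, SUV39H1, SUV39H2 and ATF7IP. They were chosen by gene name from the 60649 gene identifiers of the expression tables, and all 10 were listed in all 8 libraries. The libraries came from polyA RNA of HCT116, a human colorectal cancer cell line, and of UF1hypo, a single clone of HCT116 in which exon 4 of one UHRF1 allele had been removed (a heterozygous knockout), so that results on UF1hypo rest on 1 clone. HCT116 here carries both UHRF1 alleles. Each line received a lentiviral hairpin, either the control hairpin shScr or shUHRF1 against UHRF1, and stable pools were selected with puromycin, which every group therefore shares. There were 2 libraries in each of the 4 groups HCT116 shScr, HCT116 shUHRF1, UF1hypo shScr and UF1hypo shUHRF1. Nothing in the labels says that the 2 libraries of a group came from separate cultures, so the p-values measure the spread between these libraries, which may be technical.

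Methylation of H3K9 marks silent chromatin. SUV39H1 and SUV39H2 place the trimethyl mark on constitutive heterochromatin, EHMT2 (G9a) and EHMT1 (GLP) act as a heterodimer that places the mono- and dimethyl marks on euchromatic genes, and SETDB1 places the trimethyl mark on retroelements and zinc-finger gene clusters, where TRIM28 (KAP1) is brought by KRAB zinc-finger proteins and ATF7IP stabilizes SETDB1 in the nucleus. HUSH, built from TASOR, the chromodomain reader MPHOSPH8 and PPHLN1, silences integrated and newly inserted elements and works with SETDB1. UHRF1, which recruits the maintenance DNA methyltransferase, also reads methylated H3K9 through its tandem Tudor domain, and the comparisons ask whether the transcripts of the H3K9 machinery differ when UHRF1 is lowered by hairpin, by loss of an allele, or by both.

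The values are TPM, a transcript level per unit of gene length on a scale whose sum is equal in all libraries, and differences are log2 fold changes of TPM + 1. In bulk RNA, fewer cells that express a gene and less RNA per cell cannot be told apart. Libraries held between 5.42 and 7.84 aligned gigabases. Of 8 colorectal epithelial markers, 6 averaged above 1 TPM in each group and VIL1 and LGALS4 did not. Of 5 leukocyte markers, PTPRC, CD3E and LYZ averaged below 1 TPM in each group, ITGAM reached 1.09 in UF1hypo shUHRF1, and CD68, a lysosomal protein gene also active outside leukocytes, averaged 12.9 TPM in HCT116 with shScr and 6.79 with shUHRF1, and 41.6 in UF1hypo with shScr and 92.1 with shUHRF1. UHRF1 itself was 87.5 and 98.4 TPM in HCT116 with shScr and 31.7 and 32.7 with shUHRF1, and 47.3 and 50.6 in UF1hypo with shScr and 34.1 and 21.1 with shUHRF1. Every library with shUHRF1 was thus below every shScr library of its line. Against HCT116, UHRF1 in UF1hypo was at -0.91 with shScr (SE 0.22, adjusted p = 0.0545 by limma). With shUHRF1 in both lines it was at -0.25 (SE 0.22, adjusted p = 0.409 by limma) and the libraries overlapped. That value was -0.59 without replicate 1 of UF1hypo shUHRF1 and 0.08 without replicate 2. A lower UHRF1 transcript level in the clone was thus not detected with shUHRF1 in both lines. The difference between shUHRF1 and shScr was -1.50 (SE 0.22, adjusted p = 0.0564) in HCT116 and -0.84 (SE 0.22, adjusted p = 0.0406) in UF1hypo, by limma with Benjamini-Hochberg adjustment over all genes tested. In UF1hypo it was -1.17 without replicate 1 of UF1hypo shUHRF1 and -0.51 without replicate 2, both past the threshold, and it did not pass with a replicate block (adjusted p = 0.0669) or in a fit of the UF1hypo libraries alone (adjusted p = 0.200).

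The 2 libraries of UF1hypo shUHRF1 stood apart from each other, in a way that touched the 10 genes. Over 13781 protein-coding genes, replicates of the other groups correlated with r between 0.991 and 0.992, against 0.956 in UF1hypo shUHRF1, where the difference between the libraries fell with the GC content of a gene's transcripts (Spearman's rho -0.81 across genes, which are not independent replicates). Median transcript GC of the 10 genes ran from 36.8% (TASOR) to 59.8% (EHMT2), around a median of 51.0% for all genes. In UF1hypo shUHRF1, SUV39H2 was 1.15 higher on the log2 scale in replicate 2 than in replicate 1, and TASOR, PPHLN1, MPHOSPH8 and ATF7IP were 0.53 to 0.87 higher. EHMT1, TRIM28, EHMT2 and SUV39H1 lay 0.42 to 0.69 lower there. Thus the AT-rich genes and the GC-rich genes moved in opposite directions between 2 libraries that carry the same label. The AT-rich side held the HUSH genes, ATF7IP and the methyltransferase SUV39H2, so the sides were not those of role. SETDB1, at 49.4% GC, differed by 0.15. Across the 10 genes the rank correlation of this difference with GC was -0.92 in UF1hypo shUHRF1, 0.64 in UF1hypo shScr, 0.27 in HCT116 shScr and 0.07 in HCT116 shUHRF1 (n = 10 genes of the same libraries). Against the mean of HCT116 shScr, the rank correlation with GC over all genes was 0.05 and 0.12 for the HCT116 shUHRF1 libraries, 0.29 and 0.52 for UF1hypo with shScr, and 0.66 and 0.17 for UF1hypo with shUHRF1, so that all 4 UF1hypo libraries lay further from the controls in this respect. Results of the 10 genes that involve UF1hypo shUHRF1 are therefore given with and without each of its libraries and with levels corrected for GC content and length.

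**Figure D1:**
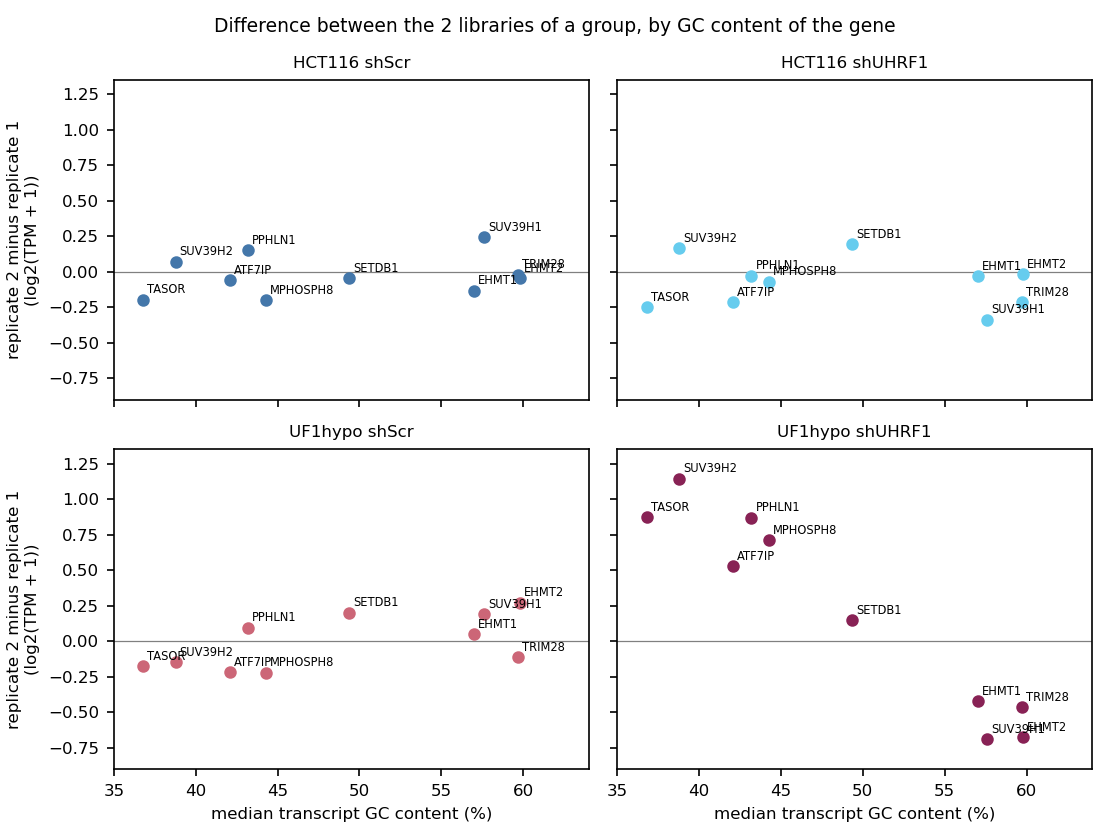
Difference between replicate 2 and replicate 1 of each group in log2(TPM + 1) (vertical axis) against median transcript GC content in % (horizontal axis) for the 10 genes, 1 panel per group. In UF1hypo shUHRF1 the points run from 1.15 for SUV39H2 down to -0.69 for SUV39H1, while the points of the other groups stay within -0.34 and 0.27.

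In level, TRIM28 stood far above the rest, with a mean of 739 TPM over the 8 libraries, and was 6.24 to 9.68 times EHMT2 in the same library. EHMT2 followed at 93.1 TPM, PPHLN1 at 57.4, EHMT1 at 55.0, SETDB1 at 33.0, MPHOSPH8 at 24.8, SUV39H1 at 22.2, TASOR at 21.9, ATF7IP at 15.6 and SUV39H2 at 11.8. For comparison, the median gene tested had a mean of 19.0 TPM. TRIM28, EHMT2 and the pair PPHLN1 and EHMT1 kept apart in that order in all 8 libraries, and so did EHMT1 over SETDB1, TASOR over ATF7IP and ATF7IP over SUV39H2 within each library. The neighbours PPHLN1 and EHMT1 kept their order in 7 of 8 libraries, SETDB1 and MPHOSPH8 in 7, MPHOSPH8 and SUV39H1 in 5 and SUV39H1 and TASOR in 4, and the ranges of each of these pairs overlapped. Between the lowest and the highest library the levels differed 1.53-fold (EHMT1) to 2.41-fold (SUV39H2).

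SUV39H1 (chromosome X:48695554-48709016, plus strand, GRCh38), a heterochromatin methyltransferase, was 22.4 and 26.7 TPM in HCT116 with shScr and 28.1 and 22.0 with shUHRF1, and 18.1 and 20.8 in UF1hypo with shScr and 24.6 and 14.9 with shUHRF1. Both UF1hypo shScr libraries lay below both HCT116 shScr libraries, and within each line the libraries of the hairpins overlapped. Its paralog SUV39H2 (chromosome 10:14878820-14904315, plus strand) was 13.7 and 14.4 TPM in HCT116 with shScr and 11.2 and 12.7 with shUHRF1, and 11.0 and 9.84 in UF1hypo with shScr and 6.22 and 15.0 with shUHRF1. It was below the HCT116 controls in both libraries of HCT116 shUHRF1 and of UF1hypo shScr, and its UF1hypo shUHRF1 libraries were the lowest and the highest of the 8. The ratio of SUV39H1 to SUV39H2 was 1.63 to 2.50 in the 4 HCT116 libraries and 1.00 to 3.96 in the 4 UF1hypo libraries.

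EHMT1 (chromosome 9:137618992-137870016, plus strand), the GLP subunit, was 55.9 and 50.9 TPM in HCT116 with shScr and 53.1 and 52.0 with shUHRF1, and 48.5 and 50.2 in UF1hypo with shScr and 74.4 and 55.3 with shUHRF1. It was higher in both UF1hypo shUHRF1 libraries than in UF1hypo shScr, with replicate 1 well above replicate 2. EHMT2 (chromosome 6:31879759-31897687, minus strand), the G9a subunit, was 91.2 and 88.4 TPM in HCT116 with shScr and 94.7 and 93.5 with shUHRF1, and 90.4 and 109 in UF1hypo with shScr and 109 and 68.3 with shUHRF1. The groups of EHMT2 overlapped except in HCT116, where both knockdown libraries were slightly higher. EHMT2 exceeded EHMT1 in all 8 libraries, by 1.63 to 1.80 times in HCT116 and 1.23 to 2.18 times in UF1hypo.

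SETDB1 (chromosome 1:150926263-150964744, plus strand) was 33.1 and 32.0 TPM in HCT116 with shScr and 35.9 and 41.2 with shUHRF1, and 32.8 and 37.8 in UF1hypo with shScr and 24.3 and 27.1 with shUHRF1. The UF1hypo shUHRF1 libraries were the 2 lowest of the 8, and the HCT116 shUHRF1 libraries were higher than both of their controls. Of the exonic bases of SETDB1, 948 of 7375 are shared with CERS2 on the other strand, and the strand setting of the counting is not given in the sources used here, so reads of the overlap cannot be told apart. CERS2 was 156 and 138 TPM in HCT116 shUHRF1 and 147 and 161 in UF1hypo shUHRF1, which overlap. ATF7IP (chromosome 12:14365676-14502931, plus strand), the SETDB1 cofactor, was 18.3 and 17.6 TPM in HCT116 with shScr and 18.2 and 15.5 with shUHRF1, and 14.4 and 12.3 in UF1hypo with shScr and 11.5 and 17.0 with shUHRF1. TRIM28 (chromosome 19:58544064-58550722, plus strand), the corepressor that brings SETDB1 to zinc-finger targets, was 755 and 745 TPM in HCT116 with shScr and 916 and 791 with shUHRF1, and 738 and 683 in UF1hypo with shScr and 745 and 540 with shUHRF1. Both TRIM28 knockdown libraries were higher than the controls in HCT116, and neither UF1hypo group reached the HCT116 group with the same hairpin.

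Of the HUSH subunits, TASOR (chromosome 3:56620132-56683265, minus strand), the scaffold, was 27.5 and 23.9 TPM in HCT116 with shScr and 26.8 and 22.4 with shUHRF1, and 19.9 and 17.5 in UF1hypo with shScr and 12.8 and 24.2 with shUHRF1. MPHOSPH8 (chromosome 13:19633659-19673441, plus strand), the chromodomain reader, was 28.3 and 24.5 TPM in HCT116 with shScr and 27.1 and 25.7 with shUHRF1, and 25.5 and 21.7 in UF1hypo with shScr and 17.0 and 28.6 with shUHRF1. PPHLN1 (chromosome 12:42238447-42459715, plus strand) was 61.2 and 68.2 TPM in HCT116 with shScr and 65.1 and 63.9 with shUHRF1, and 52.3 and 56.0 in UF1hypo with shScr and 32.3 and 59.9 with shUHRF1. In HCT116 the knockdown libraries of all 3 subunits overlapped their controls. TASOR and PPHLN1 were lower in both UF1hypo shScr libraries than in both HCT116 shScr libraries, whereas MPHOSPH8 overlapped.

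The promoters of SETDB1, the gene that passed a test below, and of TASOR and MPHOSPH8, whose levels ran together, are shown from 250 bases before to 50 after the start site, 5′ to 3′ on the gene's strand, with each CG dinucleotide in capitals, since UHRF1 acts on methylation of this dinucleotide. The sequences are RefSeq promoters of GRCh38.p14 at chr1:150926013-150926312, chr3:56683216-56683515 and chr13:19633409-19633708.
SETDB1: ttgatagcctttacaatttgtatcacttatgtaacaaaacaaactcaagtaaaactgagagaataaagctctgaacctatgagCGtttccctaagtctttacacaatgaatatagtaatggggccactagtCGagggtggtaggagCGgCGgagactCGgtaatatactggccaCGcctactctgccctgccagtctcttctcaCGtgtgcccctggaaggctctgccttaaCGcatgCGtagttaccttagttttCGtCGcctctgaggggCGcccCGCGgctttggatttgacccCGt
TASOR: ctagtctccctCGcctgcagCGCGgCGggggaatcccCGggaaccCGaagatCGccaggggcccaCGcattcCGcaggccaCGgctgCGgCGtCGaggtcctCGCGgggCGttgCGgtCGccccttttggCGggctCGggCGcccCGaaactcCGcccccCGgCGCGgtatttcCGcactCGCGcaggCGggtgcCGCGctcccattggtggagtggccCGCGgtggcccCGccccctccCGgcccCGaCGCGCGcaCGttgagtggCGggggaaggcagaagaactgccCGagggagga
MPHOSPH8: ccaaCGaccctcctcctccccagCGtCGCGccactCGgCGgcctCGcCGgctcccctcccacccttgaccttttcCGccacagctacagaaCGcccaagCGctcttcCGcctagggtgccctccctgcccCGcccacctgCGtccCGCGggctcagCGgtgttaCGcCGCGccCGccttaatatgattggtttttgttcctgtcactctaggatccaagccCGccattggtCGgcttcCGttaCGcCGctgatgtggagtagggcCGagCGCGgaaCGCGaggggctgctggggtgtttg
CG, which reads the same on both strands, occurs 15 times in the SETDB1 window, 43 times in that of TASOR and 31 times in that of MPHOSPH8. Of 15191 promoters of this length, 1 per gene, 98.1% hold at least 1 CG and the median number is 22. SETDB1 thus had a CG-poorer promoter than most, with 33.4% of promoters holding fewer, and TASOR a CG-rich one, with 93.2% holding fewer. The numbers of CG ranged from 7 (SUV39H1) to 51 (EHMT1) over the 9 genes with an entry, 7 of them above the median. Where a gene had several windows, as SETDB1 (2) and TASOR (3) did, the one nearest the 5′ end of its locus was taken. The PPHLN1 window lay 87720 bases from that end. TRIM28 had no entry. The methylation of these windows was not analysed here.

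In HCT116, shUHRF1 left the H3K9 genes without a detectable difference. By limma with Benjamini-Hochberg adjustment, 0 of 10 had an adjusted p below 0.05, where 0.0708% of 12704 genes tested did, and 0 had an unadjusted p below 0.05, where 6.38% did. None passed the 2-fold threshold (an absolute log2 fold change above 1) as well, which the same 0.0708% of all genes did. In the HCT116 libraries SETDB1 showed the highest log2 fold change, 0.23 (SE 0.17, adjusted p = 0.997), and SUV39H2 the lowest, -0.22 (SE 0.33, adjusted p = 1.00). The median over the 10 genes was 0.00, beside -0.03 for all genes tested. SETDB1, TRIM28 and EHMT2 were higher in both knockdown libraries than in both controls and SUV39H2 was lower in both, where 20.1% of all genes tested were higher and 29.3% lower in that way. The 95% intervals of all 10 lay within 1 log2 unit of no difference, the widest reach being -0.97 for SUV39H2. A 2-fold difference thus lay outside each of these intervals, and smaller ones could not be told from none.

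In UF1hypo, shUHRF1 gave 0 of 10 genes with an adjusted p below 0.05 (limma), where 13.3% of 13620 genes tested had one, and 1 with an unadjusted p below 0.05, where 27.4% had one. None passed the 2-fold threshold as well, which 8.53% of all genes did. SETDB1 was the lowest, with a log2 fold change of -0.44 (SE 0.17, unadjusted p = 0.0295, adjusted p = 0.130) and both knockdown libraries below both controls. EHMT1 was the highest, with 0.37 (SE 0.18, adjusted p = 0.215) and both knockdown libraries above both controls. Of all genes tested, 18.3% were lower and 30.6% higher in that way. The other 8 genes overlapped between the groups, with log2 fold changes between -0.29 (PPHLN1) and 0.07 (ATF7IP), and the median of the 10 was -0.09 beside 0.04 for all genes tested. Again all 10 intervals lay within 1 log2 unit of no difference, from -0.88 (PPHLN1) to 0.77 (EHMT1). These intervals share their spread over all 4 groups. Between the libraries of UF1hypo shUHRF1 the SD of the difference over genes was 0.637, against 0.282 to 0.305 in the other groups. Intervals of comparisons with UF1hypo shUHRF1 may thus be too narrow, and they do not bound a 2-fold difference.

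Which genes passed in UF1hypo turned on the library kept. Without replicate 1 of UF1hypo shUHRF1, EHMT2 passed, at -0.54 (adjusted p = 0.0347 by limma), and without replicate 2, SETDB1 (-0.51), PPHLN1 (-0.73) and SUV39H2 (-0.66) passed as lower and EHMT1 (0.58) as higher, with adjusted p between 0.00421 and 0.0287. Corrected for GC content and length, only EHMT2 passed, at -0.46 (adjusted p = 0.0155). These counts of 1, 4 and 1 of 10 stood beside 19.4%, 47.6% and 20.8% of all genes tested in the same fits, in which a group left with 1 library is assumed to vary like the others. SETDB1 kept its sign, at -0.37 and -0.51 without either library and -0.40 (adjusted p = 0.0824) after the correction.

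The estimated effect of shUHRF1 differed in sign between the lines for SETDB1, with 0.23 in HCT116, which could not be told from none, and -0.44 in UF1hypo. The difference between these effects was -0.68 (SE 0.24, 95% interval -1.22 to -0.13, unadjusted p = 0.0209), with an adjusted p of 0.169 by limma, so it did not pass. For all 10 genes 0 passed, where 5.22% of 13781 genes tested did, and SETDB1 was the 1 with an unadjusted p below 0.05, beside 18.5% of all genes. None passed the 2-fold threshold as well, which 5.09% of all genes did. The differences of the other 9 ran from -0.35 (TRIM28) to 0.39 (EHMT1). Without replicate 2 of UF1hypo shUHRF1, SETDB1 (-0.75), PPHLN1 (-0.72) and EHMT1 (0.60) passed, with adjusted p between 0.0158 and 0.0293, beside 30.9% of all genes tested, and without replicate 1 none of the 10 did, beside 11.7%.

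With the control hairpin, the UF1hypo clone stood below HCT116 for most of the genes, without a difference that passed. Log2 fold changes were above 0 for 2 of 10 genes, beside 44.6% of all genes tested, with a median of -0.21 beside -0.05 for all genes tested, and 0 of 10 had an adjusted p below 0.05 (limma), where 4.78% of 12856 genes tested had one, or an unadjusted p below 0.05, where 18.2% had one. None passed the 2-fold threshold as well, which 3.54% of all genes did. Both libraries of the clone lay below both HCT116 libraries for TRIM28, TASOR, PPHLN1, EHMT1, SUV39H1, SUV39H2 and ATF7IP, 7 of 10 genes, as they did for 37.2% of all genes tested, and above them for 0 of 10, beside 29.1%. The lowest were TASOR at -0.44 (SE 0.28, adjusted p = 0.452), ATF7IP at -0.41 (SE 0.22, adjusted p = 0.387) and SUV39H2 at -0.40 (SE 0.33, adjusted p = 0.563). SETDB1 and EHMT2 were at 0.11 and 0.15. The spread in this fit is shared with the UF1hypo shUHRF1 libraries. Without either of these, TASOR passed at the same -0.44 (adjusted p = 0.0417 and 0.0442 by limma), the 1 of 10 in fits where 25.1% and 25.0% of all genes tested passed. Corrected for GC content and length, TASOR was at -0.16 and ATF7IP at -0.19, and SUV39H1 passed at -0.59 (adjusted p = 0.0461), the 1 of 10 where 9.66% of all genes tested did.

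With the hairpin against UHRF1 in both lines, SETDB1 was lower in the clone, at -0.57 (SE 0.17, 95% interval -0.95 to -0.18, adjusted p = 0.0352 by limma). This is 0.675 of its HCT116 level on the TPM + 1 scale. UHRF1 itself was at -0.25 in this comparison, with overlapping libraries. Below, fell or rose in the clone with shUHRF1 means lower or higher than in HCT116 shUHRF1, not a change on knockdown. SETDB1 was the 1 gene of 10 with an adjusted p below 0.05. That is a smaller share than the 30.2% of 13650 genes tested in either direction and near the 9.60% that were lower. At an unadjusted p below 0.05 there were 2 of 10, beside 43.4%. No gene of the 10 passed the 2-fold threshold as well, which 16.2% of all genes tested did. SETDB1 passed without either UF1hypo shUHRF1 library (-0.49, adjusted p = 0.0430, and -0.64, adjusted p = 0.00995) and once corrected for GC content and length (-0.51, adjusted p = 0.0218). It did not pass when only the 4 libraries of the comparison entered the fit (adjusted p = 0.199), when libraries were weighted by quality (adjusted p = 0.192), with a replicate block (adjusted p = 0.0560) or without any 1 of the other 6 libraries, and passed in 14 of 23 alternatives in all.

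The other members stood lower than in HCT116 except EHMT1, at 0.28, which was above HCT116 in both libraries, as 36.0% of all genes tested were. TRIM28, at -0.42 (SE 0.17, unadjusted p = 0.0372, adjusted p = 0.0940 by limma), and PPHLN1, at -0.54 (SE 0.26, adjusted p = 0.143), were below HCT116 in both libraries, as 25.0% of all genes tested were. TASOR was at -0.45, SUV39H1 at -0.36, SUV39H2 at -0.27, ATF7IP and MPHOSPH8 at -0.25 and EHMT2 at -0.12, all with overlapping libraries. The median of the 10 was -0.31 beside 0.05 for all genes tested.

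Here too the 2 UF1hypo shUHRF1 libraries gave different genes. Without replicate 1, SETDB1, TRIM28 (-0.65), EHMT2 (-0.46) and SUV39H1 (-0.70) passed as lower, and the same 4 passed once corrected for GC content and length, with TRIM28 at -0.78, EHMT2 at -0.58 and SUV39H1 at -0.80 and adjusted p between 0.00268 and 0.0218 (limma). Without replicate 2, SETDB1 passed with MPHOSPH8 (-0.60), TASOR (-0.89), PPHLN1 (-0.98), SUV39H2 (-0.84) and ATF7IP (-0.51) as lower and EHMT1 (0.49) as higher. The shares of all genes tested that passed were 33.2% without replicate 1, 37.5% with the correction and 60.7% without replicate 2, near the shares of the 10. SETDB1 was the gene that passed in each of these fits. TASOR and MPHOSPH8 were at -0.02 and 0.11 without replicate 1 and at 0.00 and 0.12 after the correction, so the lower levels of these HUSH genes rested on replicate 1.

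**Figure D2:**
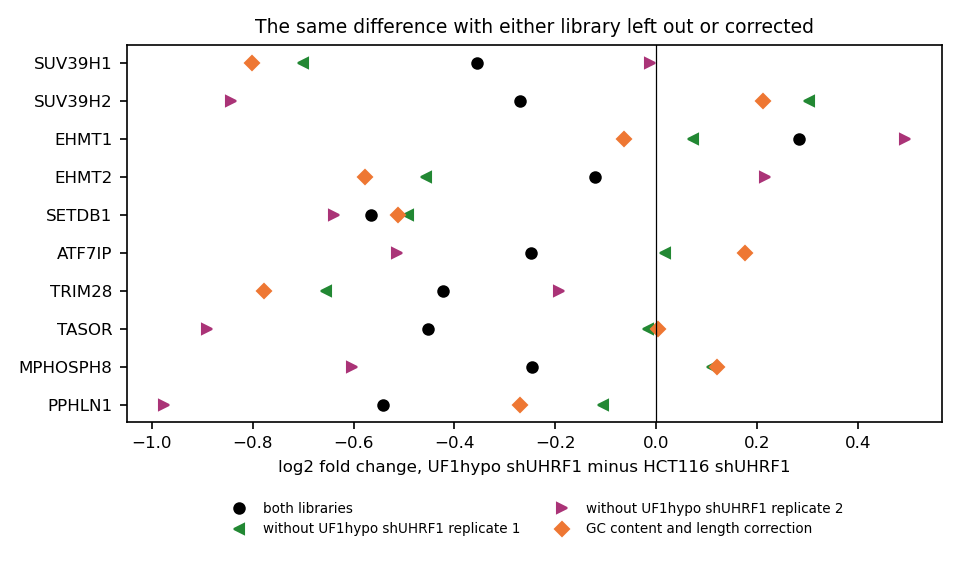
Log2 fold change between UF1hypo shUHRF1 and HCT116 shUHRF1 (horizontal axis) for the 10 genes by role, with both libraries (circles), without either UF1hypo shUHRF1 library (triangles) and with levels corrected for GC content and length (diamonds). SETDB1 stays between -0.64 and -0.49, while TASOR ranges from -0.89 to 0.00 and EHMT2 from -0.58 to 0.22.

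Within the HUSH complex, the ratio of TASOR to MPHOSPH8 separated the lines. It was 0.972 and 0.975 in HCT116 with shScr and 0.992 and 0.870 with shUHRF1, and 0.782 and 0.807 in UF1hypo with shScr and 0.749 and 0.849 with shUHRF1. All 4 UF1hypo libraries were below all 4 HCT116 libraries, with means of 0.797 ± 0.0419 and 0.952 ± 0.0554 (SD, n = 4 each) and a log2 difference of -0.26. The exact two-sided permutation test gave p = 0.0286, the smallest that 4 against 4 libraries can give, and p = 0.200 after Benjamini-Hochberg adjustment over the 7 ratios of partners compared. Corrected for GC content and length, the difference was -0.16 (exact permutation p = 0.0571), and the ratio of SUV39H1 to SUV39H2 was then the one at the smallest possible p, with -0.74 (exact permutation p = 0.0286, adjusted p = 0.200). The remaining 6 ratios, EHMT2 to EHMT1, SUV39H1 to SUV39H2, SETDB1 to ATF7IP, TRIM28 to SETDB1, PPHLN1 to MPHOSPH8 and PPHLN1 to TASOR, overlapped between the lines as deposited, with exact permutation p between 0.200 and 0.971. Both hairpins are in each line, so this comparison is of lines and not of the hairpin.

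**Figure D3:**
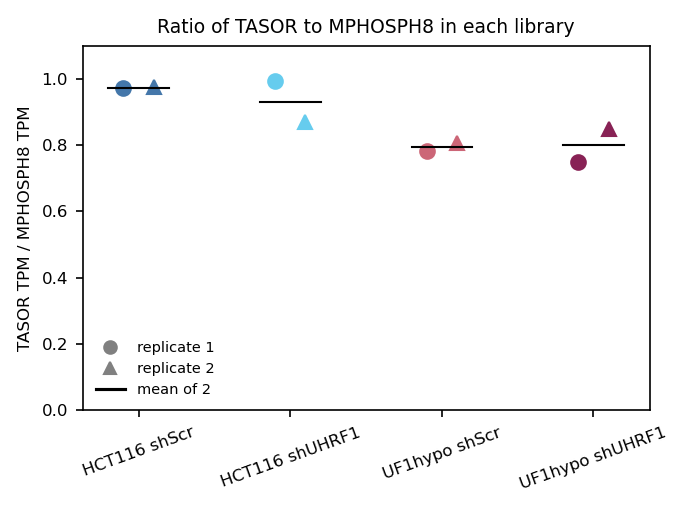
Ratio of TASOR TPM to MPHOSPH8 TPM (vertical axis, from 0) in each of the 8 libraries by group, with lines at the means of 2. The HCT116 libraries lie between 0.870 and 0.992 and the UF1hypo libraries between 0.749 and 0.849.

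Across the 8 libraries, which share the GC difference above, TASOR and ATF7IP ran most closely together (r = 0.97 on log2(TPM + 1), n = 8), followed by MPHOSPH8 and TASOR (r = 0.95), and PPHLN1 and EHMT1 ran most opposite (r = -0.82). The groups of SETDB1 and PPHLN1 spanned the widest ranges of mean log2 level among the 10, 0.57 and 0.54, beside a median of 0.62 for all genes tested. The genes most like SETDB1 over the 8 libraries were RPL11 (r = 0.98), a ribosomal protein gene, NIPSNAP1 (r = 0.97), a mitochondrial protein gene, and HOXA5 (r = 0.97), a homeobox gene. Of 10532 genes compared, 27 had r above 0.9 with SETDB1 and 1062 with PPHLN1, whose most alike were GPBP1L1, COPS8 and STIM2 (each r = 0.99).

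Of the readers of the mark, 2 of 4 tested fell in the clone with shUHRF1, where 30.2% of all genes tested passed in either direction and 9.60% as lower. CBX1, CBX3 and CBX5 encode the HP1 proteins that bind methylated H3K9. CBX5 was 33.5 and 30.4 TPM in HCT116 shUHRF1 and 7.96 and 13.6 in UF1hypo shUHRF1, and CBX1 was 229 and 241 TPM against 92.5 and 136. Both were lower than in HCT116 shUHRF1, CBX5 at -1.53 (SE 0.25, adjusted p = 0.00316) and CBX1 at -1.06 (SE 0.19, adjusted p = 0.00491, limma). No library of the groups overlapped. The 5 readers listed also hold CDYL and CDYL2. Without replicate 1 of UF1hypo shUHRF1 CBX5 was at -1.17 and CBX1 at -0.78, and without replicate 2 at -1.88 and -1.34. CBX5 passed in 23 of 23 alternatives and CBX1 in 22. With the control hairpin CBX5 was 29.0 and 28.4 TPM in HCT116 and 18.6 and 14.2 in UF1hypo, which did not pass. CBX1 was then 159 and 172 TPM in HCT116 and 135 and 115 in UF1hypo, which did not pass either. On knockdown CBX1 was higher in both HCT116 libraries (0.51, adjusted p = 0.653 by limma) and overlapped in UF1hypo (-0.15). No reader passed in either knockdown.

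Of 21 partner genes, 4 fell and 2 rose in the clone with shUHRF1, a share near the 30.2% of all genes tested. HELLS, a chromatin remodeler that aids DNA methylation, fell at -1.38 (SE 0.34, adjusted p = 0.0174), and HDAC2, a histone deacetylase, at -0.995 (SE 0.22, adjusted p = 0.0120). Without replicate 1 of UF1hypo shUHRF1 these were -0.77 and -0.65 and without replicate 2 -1.99 and -1.34, and both passed each time. CHD3, of the deacetylase complex NuRD, fell at -0.71 (adjusted p = 0.0153) and POGZ, an HP1-binding zinc-finger protein, at -0.58 (adjusted p = 0.0399). MORC2, the ATPase that acts with HUSH, was 23.1 and 20.9 TPM in HCT116 shUHRF1 and 34.3 and 30.9 in UF1hypo shUHRF1 and rose at 0.55 (SE 0.17, adjusted p = 0.0429), which did not pass without replicate 1 (0.47, adjusted p = 0.0524). MBD1, which binds methylated DNA, rose at 0.68 (adjusted p = 0.0130), and by 0.59 (adjusted p = 0.0414) on knockdown in UF1hypo, where it was the 1 partner that passed. Corrected for GC content and length, MBD1 was at 0.23 and 0.30 and did not pass in either comparison. No partner passed in HCT116.

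Of 11 H3K9 demethylases, KDM1A, also called LSD1, fell in the clone with shUHRF1 at -0.81 (SE 0.16, adjusted p = 0.00722 by limma). KDM7A fell at -1.05 (SE 0.28, adjusted p = 0.0248) and JMJD1C at -0.84 (SE 0.25, adjusted p = 0.0336). KDM4B was higher than in HCT116 shUHRF1, at 0.93 (SE 0.18, adjusted p = 0.00643). These 4 of 11 stood beside 30.2% of all genes tested. KDM4B was 27.5 and 29.5 TPM in HCT116 with shScr and 20.7 and 18.9 with shUHRF1. In UF1hypo it was 40.4 and 38.3 with shScr and 44.1 and 33.9 with shUHRF1, which overlap. Without replicate 1 of UF1hypo shUHRF1, KDM7A was at -0.65 and did not pass (adjusted p = 0.0521) and JMJD1C was at -0.47. JMJD1C (-0.29) and KDM4B (0.46) did not pass once corrected for GC content and length. Of 3 other H3K9 methyltransferase genes tested among SETDB2, PRDM2, MECOM and PRDM16, 0 passed in any comparison.

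Retroelements are targets of SETDB1 and HUSH, but gene tables cover few of them. Of 8 genes of retroviral envelope origin, 2 were tested. ERVMER34-1 was 13.4 and 12.4 TPM in UF1hypo with shScr and 5.51 and 7.84 with shUHRF1. It fell on knockdown at -0.87 (SE 0.20, adjusted p = 0.0268 by limma). That fall passed in 14 of 23 alternatives. It did not pass in a fit of the UF1hypo libraries alone (adjusted p = 0.175 by limma) or with a replicate block (adjusted p = 0.0523). ERVMER34-1 also fell in the clone with shUHRF1 at -1.20 (SE 0.20, adjusted p = 0.00349 by limma), which passed in 23 of 23 alternatives. The other, ERV3-1, did not pass in any comparison.

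Cell-cycle transcripts were lower in sum in the clone. The summed level of 8 cell-cycle markers was 1650 to 1812 TPM in the 4 HCT116 libraries, 1207 to 1296 in UF1hypo shScr and 917 to 1165 in UF1hypo shUHRF1. With shScr all 8 were lower in the clone, but 0 passed (lowest adjusted p = 0.0789 by limma), beside 4.78% of all genes tested. On knockdown in UF1hypo 0 of 8 passed (lowest adjusted p = 0.130 by limma), beside 13.3%. In the clone with shUHRF1, MKI67, TOP2A, CCNB1, CCNA2, PCNA and CDK1 fell, 6 of 8 beside 9.60% of all genes tested, at -0.75 (PCNA) to -1.43 (CDK1). Without replicate 1 of UF1hypo shUHRF1, CDK1 was at -0.62, TOP2A at -0.51 and MKI67 at -0.50, the last not passing (adjusted p = 0.0606 by limma), and without replicate 2 they were at -2.23, -1.73 and -1.02. Summed epithelial markers were 4354 to 5604 TPM in the HCT116 libraries, 8812 to 9086 in UF1hypo shScr and 9857 to 12705 in UF1hypo shUHRF1. Of these markers, KRT8 (0.94), KRT18 (1.05), KRT19 (1.23) and CDH1 (1.52) rose in the clone with shUHRF1. These were 4 of 6 tested, beside 20.7% of all genes tested that passed as higher. The keratins also rose with shScr (1.16, 1.14 and 1.02), and CDH1 on knockdown in UF1hypo (0.93). EPCAM went the other way at -0.39, with 302 and 311 TPM in HCT116 shUHRF1 and 174 and 314 in UF1hypo shUHRF1, which overlap. Summed leukocyte markers were 6.73 to 7.72 TPM in HCT116 shUHRF1 and 79.1 to 109 in UF1hypo shUHRF1, where CD68 and ITGAM were the 2 of 5 above 1 TPM and CD68 rose at 3.57 (adjusted p = 9.3e-06 by limma). Summed fibroblast and endothelial markers were 22.2 to 26.7 and 38.0 to 66.1 TPM there, with COL1A1, which rose at 1.01 (adjusted p = 0.0228), the 1 of 6 above 1 TPM. The part of these shifts in the levels of the H3K9 genes was not tested.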

How the data were processed

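RNA-seq gene tables of 8 libraries were used, 2 in each of 4 groups named by the labels. The authors used Fastp for trimming, HISAT2 2.0.4 for alignment to GRCh38 and StringTie 2.1.4 for abundances (versions per the submitters' processing notes); the gene annotation release and strand setting are not given in the sources used here. The deposited TPM values were normalized by the authors for gene length and to sum to 1000000 in each library. The deposited FPKM values were normalized by the authors for gene length and aligned bases, and served as an alternative. The deposited coverage values are mean per-base read coverage, not scaled, and gave only the depth, from their ratio to FPKM. Read counts are not among these values, and the counting error of a gene is therefore unknown.

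Only genes that GENCODE version 44 lists as protein-coding were kept. All 8 libraries entered 1 linear model of log2(TPM + 1) with 4 groups and 4 residual degrees of freedom (limma 3.58.1, R 4.3.3, variance trend). Genes above 1 TPM in any library of a comparison were tested in it. P-values were adjusted by Benjamini-Hochberg over all genes tested, with a threshold of 0.05, and a second rule also asked for an absolute log2 fold change above 1. An exact test of 2 against 2 libraries cannot reach the threshold. GC content and length are medians over a gene's transcripts in GENCODE, and genes were split into 10 bins of each. The correction took each library alone, first for GC content and then for length. It subtracted the median log2 level of a gene's bin minus the median log2 level of that library. The method was tested on simulated data whose genes varied independently, with no shift linked to GC content. That simulation therefore does not cover the difference between the UF1hypo shUHRF1 libraries. The remaining steps ran in Python 3.11.15 (SciPy 1.17.1, numpy 2.4.6, matplotlib 3.10.9, pandas 2.3.3).

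The 10 genes, the companion lists and the tests were chosen with earlier results of these data known. Of the marker lists, 1 gene is not reported here. The text names all 10 genes, UHRF1, each companion or marker gene of the lists with an adjusted p below 0.05 in any comparison and, for the 2 genes with the widest range of group means, the 3 genes of mean TPM above 5 most correlated with them. Alternatives were another pseudocount (0.1), filter, gene set, record, scaling, variance model, weighting, correction, replicate block and each library left out.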

Additional observations from a re-analysis of the deposited data

Results flagged for a closer look

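SETDB1 was marked because its libraries moved in opposite directions with shUHRF1 in the 2 lines: both HCT116 knockdown libraries lay above their controls and both UF1hypo knockdown libraries below theirs. Of all genes tested, 20.1% were higher in that way in HCT116 and 18.3% lower in UF1hypo. The share of genes with both was not computed, so the mark does not say that the pattern is rare. The difference between the effects, UF1hypo minus HCT116, was -0.68 on the log2 scale. It was tested in limma as an interaction and did not pass, with an adjusted p of 0.169 over 13781 genes and between 0.0293 and 0.487 over the 22 alternatives, 1 of which passed. Its sign was the same in all 22, but another filter, gene set or variance model cannot change the estimate, so the sign was fixed in those.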

How the results depend on the processing

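No paired design is given by the labels. Deviations of libraries with the same number correlated at -0.40 between UF1hypo shScr and UF1hypo shUHRF1, and between -0.03 and 0.05 for the other pairs of groups. The UF1hypo libraries thus deviated in opposite directions by number, and the cause was not tested. With a replicate block, 0 of the 10 genes passed in each comparison, against 1 without it (SETDB1, clone with shUHRF1, adjusted p = 0.0560 with the block). With the block and the GC and length correction together, chosen after seeing the data, 1 passed in the UF1hypo knockdown and 4 in the clone with shUHRF1. With the numbers exchanged in UF1hypo shScr, also chosen after seeing the data, the counts were 0 and 1.

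For genes with an adjusted p below 0.05 (limma), the HCT116 knockdown gave 0 of 10 under all 23 alternatives. The GC and length correction gave 1 in the UF1hypo knockdown, 1 in the clone with shScr and 4 in the clone with shUHRF1. Quantile normalization gave 2 in the clone with shUHRF1. Library weights gave 2 in the clone with shScr and 0 with shUHRF1, and fits of the libraries of a comparison alone gave 1 and 0. Leaving out 1 library at a time gave 0 to 4 in the UF1hypo knockdown, 0 to 3 in the difference between the knockdowns, 0 to 1 in the clone with shScr and 0 to 7 in the clone with shUHRF1. All counts above 0 came without replicate 1 or replicate 2 of UF1hypo shUHRF1, and SETDB1 in the clone with shUHRF1 was lost without any 1 of the other 6 libraries. No gene of the 10 passed both thresholds under any alternative.

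Among all genes tested, the number with an adjusted p below 0.05 was 9 in the HCT116 knockdown and 0 to 525 under the alternatives, 1809 in the UF1hypo knockdown (562 to 6391), 720 for the difference between them (171 to 4214), 614 in the clone with shScr (149 to 3627) and 4129 with shUHRF1 (1724 to 8171), with the highest without replicate 2 of UF1hypo shUHRF1 or with library weights.

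Of 1140 values of the 10 genes under alternatives, 1023 kept their sign and side of the threshold and 76 changed sign with no adjusted p below 0.05 on either side. Of the rest, 32 newly passed, 9 no longer passed and 0 passed in the opposite direction. Another filter or variance model, or leaving out a library outside the comparison, cannot change a log2 fold change, so the sign was fixed there. The cause of these changes was not tested. Without read counts, the counting error of single genes is unknown, and groups of 2 libraries limit every comparison.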
